A study of Mus musculus with 2 samples.

Results

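A set of 10 genes of glucose uptake and glycolysis were followed through blood leukocytes of wild-type (WT) and APP/PS1 transgenic mice, a model of Alzheimer's disease. They are the glucose transporter Slc2a3 and the enzymes Hk2, Pfkl, Aldoa, Tpi1, Gapdh, Pgk1, Eno1, Pkm and Ldha. The genes were chosen by symbol, which gave 10 of the 32285 features of the deposited tables. No measured value was a criterion, but earlier results of these data were known when the genes were chosen. Each was counted as unique molecular identifiers (UMIs, each 1 captured mRNA molecule) summed over the cells of a library and cell type.

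Glucose enters leukocytes through facilitative transporters, of which Slc2a3 (GLUT3) has a high affinity for glucose. Hexokinases trap it as glucose-6-phosphate, phosphofructokinase makes the first step that commits it to glycolysis, and the enzymes from aldolase to pyruvate kinase turn the sugar into pyruvate, with ATP made by Pgk1 and Pkm. Lactate dehydrogenase then regenerates NAD+ by converting pyruvate to lactate. Mature neutrophils hold few mitochondria and are known to draw most of their ATP from this pathway.

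The study compared peripheral blood neutrophils of 7-month-old female mice, enriched by negative selection (EasySep) after red cell lysis, with cells of 3 mice pooled into 1 library per genotype. WT mice were C57BL/6J by the study's methods, and APP/PS1 mice are a transgenic line for which the promoters driving the transgenes are not given in the sources used here. No group received a treatment. With 1 library per genotype, library preparation and genotype cannot be told apart, no test between genotypes was made, and all intervals below are exact 95% intervals that cover counting error only.

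The WT library held 17123 barcodes with 92458623 UMIs and the APP/PS1 library 17645 barcodes with 84870864 UMIs. After the filters of the study, 14564 and 15208 cells were kept, and 63 of the kept barcodes occurred in both libraries. Although the samples are labelled neutrophil, cells with neutrophil markers (S100a8, S100a9, Retnlg, Csf3r and others) made up 52.1% of kept WT cells (7582 cells) and 63.0% of kept APP/PS1 cells (9586 cells). The remaining cells gave 8 further types with at least 50 cells in each library, all named from markers and therefore "-like": nonclassical monocytes, classical monocytes, major histocompatibility complex (MHC) class II-high myeloid cells, NK, T, gamma-delta T, B and erythroid cells. A further 1394 and 987 kept cells belonged to clusters that could not be named or carried neutrophil genes inside clusters of other cells, and these were set aside. Levels are given as UMIs per 1000000 UMIs of the cell type in that library (CPM), with WT first and APP/PS1 second.

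In the mm10 genome with GENCODE M21 annotation, which was used here for positions, all 10 members are protein-coding genes. Hk2 lies at chr6:82725025-82774454 on the minus strand, on the same chromosome as Gapdh (chr6:125161715-125166467), Tpi1 (chr6:124810586-124814296) and Slc2a3 (chr6:122727809-122801640). Ldha lies at chr7:46841475-46855627 and Aldoa at chr7:126795234-126800751. Pkm is at chr9:59656368-59679375, Eno1 at chr4:150236721-150248879, Pfkl at chr10:77986947-78010083 and Pgk1 at chrX:106187100-106203699. Gapdh, Eno1 and Aldoa have near-identical copies in the genome, so that reads may have been split or dropped. Eno1b held 1308 UMIs against 29359 for Eno1 over all deposited cells, and a second row with the symbol Aldoa held 0.

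The promoters of Hk2, Ldha, Pgk1 and Gapdh are shown because these 4 members stood high together in one neutrophil cluster described below, and because Hk2 differed most between the libraries. Each sequence is the 250 bases before the annotated start, from RefSeq on GRCm38.p6, written 5′ to 3′ on the strand of the gene. Capitals mark ACGTG, a core shared by the hypoxia response element and the E-box, and GCGTG, the other form of the hypoxia response core, both read on either strand, so that CACGTG is matched on both.
Hk2, chr6:82774455-82774704, minus strand: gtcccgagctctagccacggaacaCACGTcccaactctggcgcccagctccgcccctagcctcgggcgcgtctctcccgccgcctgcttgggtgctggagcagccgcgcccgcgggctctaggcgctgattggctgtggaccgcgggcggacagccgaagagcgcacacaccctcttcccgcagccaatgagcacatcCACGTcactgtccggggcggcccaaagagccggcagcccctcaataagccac
Ldha, chr7:46845554-46845803, plus strand: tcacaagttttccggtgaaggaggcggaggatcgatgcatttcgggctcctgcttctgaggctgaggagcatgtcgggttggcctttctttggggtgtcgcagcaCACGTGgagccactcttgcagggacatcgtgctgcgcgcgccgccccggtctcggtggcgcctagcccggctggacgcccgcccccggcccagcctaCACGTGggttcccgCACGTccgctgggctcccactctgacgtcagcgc
Pgk1, chrX:106186850-106187099, plus strand: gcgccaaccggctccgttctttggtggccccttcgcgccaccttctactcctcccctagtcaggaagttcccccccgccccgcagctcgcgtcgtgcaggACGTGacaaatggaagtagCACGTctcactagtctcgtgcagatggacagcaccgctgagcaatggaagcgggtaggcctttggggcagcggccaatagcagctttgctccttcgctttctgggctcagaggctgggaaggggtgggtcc
Gapdh, chr6:125165774-125166023, minus strand: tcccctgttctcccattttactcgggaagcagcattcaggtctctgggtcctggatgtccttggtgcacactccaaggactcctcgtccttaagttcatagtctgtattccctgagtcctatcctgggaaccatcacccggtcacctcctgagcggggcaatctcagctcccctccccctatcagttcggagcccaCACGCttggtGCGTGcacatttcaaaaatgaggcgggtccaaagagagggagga
The Hk2 window held 2 matches of ACGTG, this Ldha window 5 and the Pgk1 window 2, while the Gapdh window held 0 of ACGTG and 2 of GCGTG. Ldha has a second annotated start (window chr7:46846832-46847081), which held 0 of ACGTG and 1 of GCGTG. An entry was found for 9 of the 10 members, all but Slc2a3. These 9 members have 15 entries, of which 6 held ACGTG and 12 held either motif, while of all 32851 promoter windows of this length 16.6% held ACGTG and 38.6% either. Entries of 1 gene can overlap and are not independent. The matches describe letters in a window, and binding was not measured.

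Slc2a3 was the 1 member with a higher level in neutrophils than in each of the 8 other types by over 1 log2 in both libraries. The share of all genes that were higher against all 8 types was not counted, and shares per type are given below. Its level was 459 CPM (450 to 468) in WT neutrophils and 427 CPM (420 to 435) in APP/PS1 neutrophils. It was 10.7 and 10.4 CPM in nonclassical monocytes, 19.9 and 24.0 CPM in classical monocytes, and 19.1 and 28.9 CPM in MHC class II-high myeloid cells. Neutrophils thus held 42.9-fold and 40.9-fold the level of nonclassical monocytes and 23.1-fold and 17.8-fold that of classical monocytes. NK cells (150 and 145 CPM), T cells (93.5 and 110 CPM) and gamma-delta T cells (42.6 and 106 CPM, 19 and 43 UMIs) lay between. B cells held 53.2 and 29.2 CPM (86 and 53 UMIs), in the APP/PS1 library close to the MHC class II-high level. Erythroid cells held 84.4 and 102 CPM, and their intervals overlapped those of T cells in both libraries. Because the total of a cell type depends on its most abundant transcripts, the contrast was repeated with edgeR TMM factors and with totals that left out haemoglobin, mitochondrial, ribosomal protein, S100a8 and S100a9 genes. Slc2a3 remained over 1 log2 under all 3 scalings against 7 of the 8 types, and against erythroid cells its lowest value was 0.86.

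Free RNA can place neutrophil transcripts in the droplets of other cells, so the granulocyte transcript S100a9 is given beside Slc2a3. In classical monocytes S100a9 stood at 1.11% and 1.19% of its neutrophil level and Slc2a3 at 4.33% and 5.61%. In nonclassical monocytes the shares were 1.30% and 1.40% for S100a9 and 2.33% and 2.44% for Slc2a3. In NK cells they were 10.6% and 11.1% for S100a9 and 32.8% and 33.9% for Slc2a3. In erythroid cells Slc2a3 (18.4% and 23.8%) did not exceed S100a9 (18.6% and 27.2%). At least 1 Slc2a3 UMI was found in 62.3% and 62.2% of neutrophils, at a median of 2553 and 2703 UMIs per cell, and in 4.73% and 4.70% of nonclassical monocytes, at a median of 4082 and 4287.5 UMIs. After thinning every cell to 1000 UMIs these shares were 34.0% and 31.7% in neutrophils and 1.03% and 0.796% in nonclassical monocytes.

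**Figure D1:**
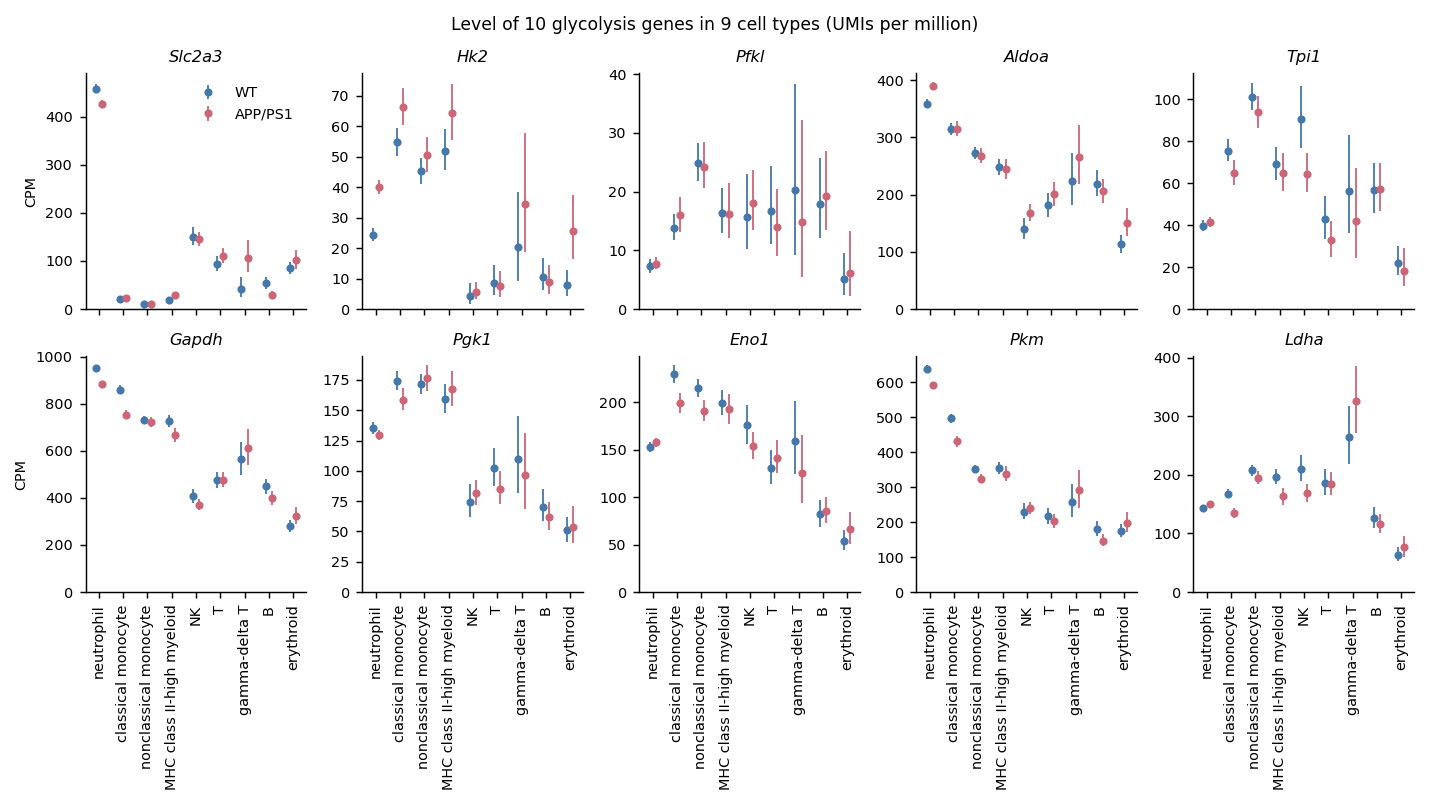
Level of each of the 10 genes (CPM of the summed UMIs, linear axes from 0, one panel per gene) in 9 marker-defined cell types of the WT and APP/PS1 libraries, with exact 95% Poisson intervals. Slc2a3 stands at 459 and 427 CPM in neutrophils and at 10.7 and 10.4 CPM in nonclassical monocytes, whereas Hk2 has its highest CPM in classical monocytes, a difference from neutrophils whose sign changes under TMM.

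Hk2, the inducible hexokinase that binds mitochondria, followed another order. Its level was 54.7 and 66.2 CPM in classical monocytes, 51.9 and 64.2 CPM in MHC class II-high myeloid cells and 45.3 and 50.4 CPM in nonclassical monocytes, and the intervals of the first pair overlapped. Neutrophils came next with 24.3 CPM (22.3 to 26.5) and 39.9 CPM (37.7 to 42.3). NK cells held 4.21 and 5.55 CPM from 7 and 16 UMIs, T cells 8.67 and 7.51 CPM, and B cells 10.5 and 8.82 CPM. Gamma-delta T cells held 20.2 and 34.5 CPM (9 and 14 UMIs) and erythroid cells 7.72 and 25.4 CPM (15 and 25 UMIs). In gamma-delta T cells the intervals, 9.24 to 38.3 and 18.9 to 57.9 CPM, held the neutrophil levels. The NK level was 17.3% and 13.9% of that in neutrophils, beside 10.6% and 11.1% for S100a9. The contrast with NK and T cells was over 1 log2 under all 3 scalings, with lowest values of 2.52 and 1.27. Against classical monocytes neutrophils were lower by CPM, but the log2 difference ran from -1.23 to 0.17 over scalings and libraries, so no direction is given. Likewise the differences from nonclassical monocytes (-0.91 to 0.65) and MHC class II-high cells (-1.16 to 0.30) changed sign.

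Pfkl, the liver-type phosphofructokinase, was the least abundant member in neutrophils, with 158 and 227 UMIs (7.26 and 7.71 CPM). It was 24.9 and 24.2 CPM in nonclassical monocytes and 13.9 and 15.9 CPM in classical monocytes. At CPM it was lower in neutrophils by over 1 log2 in both libraries against nonclassical monocytes, MHC class II-high cells, B and NK cells, but none of these stayed past 1 under all 3 scalings and the one against NK cells changed sign.

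Of the enzymes downstream, Pkm (pyruvate kinase) had 637 and 592 CPM in neutrophils, 496 and 430 CPM in classical monocytes, 351 and 324 CPM in nonclassical monocytes, 230 and 240 CPM in NK cells and 181 and 147 CPM in B cells. Under all 3 scalings it stayed over 1 log2 higher in neutrophils than in B, NK and T cells, with lowest values of 1.51, 1.27 and 1.34. Aldoa (aldolase) with 359 and 390 CPM and Gapdh (glyceraldehyde-3-phosphate dehydrogenase) with 953 and 885 CPM were over 1 log2 higher in neutrophils than in NK cells under all scalings. Tpi1 (triosephosphate isomerase) went the other way against nonclassical monocytes, with 39.7 and 41.5 CPM in neutrophils against 101 and 93.8 CPM, a difference of -1.35 and -1.17 that kept its sign but shrank to -0.19 under TMM. Ldha, Pgk1 (phosphoglycerate kinase) and Eno1 (enolase) differed from either monocyte type by less than 1 log2 at CPM and changed sign with the scaling.

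The members past 1 log2 at CPM have to be read against all genes. Neutrophils were higher for 4 of 10 members against B cells (23.3% of all genes tested), 5 against NK cells (19.4%), 3 against T cells (19.4%), 2 against gamma-delta T cells (19.6%), 6 against erythroid cells (53%), and 1 each against classical monocytes (14.6%), nonclassical monocytes (15.3%) and MHC class II-high cells (16.4%). They were lower for 1 member against B cells (22.2%), 1 against NK cells (28.4%), 1 against MHC class II-high cells (28.6%) and 2 against nonclassical monocytes (35.6%). Of these 28 differences, 27 kept one sign and 14 stayed past 1 log2 under all 3 scalings. TMM moved every neutrophil difference up by 0.90 to 1.29 log2, except against erythroid cells, where it moved them by -0.56 and -0.34. The clusters were made without the members and the other pathway genes, but from the same cells, and these differences are a description.

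Shares within a family of isozymes do not depend on the scaling. They compare 3′ UMIs, 1 per captured molecule, so gene length does not enter, although capture may differ between genes. Hk3, a myeloid hexokinase, made up 67.7% (66.2% to 69.3%) and 59.7% (58.4% to 61.1%) of hexokinase UMIs (Hk1, Hk2 and Hk3) in neutrophils. Hk2 made up 15.5% (14.3% to 16.7%) and 22.9% (21.8% to 24.1%) there, 45.0% and 50.3% in classical monocytes, and 53.1% and 59.4% in nonclassical monocytes. Hk1, the housekeeping form, led in NK cells with 68.4% and 69.2% and in T cells with 71.6% and 66.0%. In each of these 5 types the leading hexokinase was the same in both libraries.

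For phosphofructokinase, Pfkp led in neutrophils with 88.2% and 81.5%, while Pfkl held 11.6% (9.92% to 13.4%) and 18.1% (16.0% to 20.3%) and Pfkm, the muscle form, 3 and 5 UMIs. Pfkl had its highest share among myeloid cells in nonclassical monocytes, at 25.9% and 29.5%. Enolase was nearly all Eno1 in neutrophils (96.0% and 96.7%) and classical monocytes (96.4% in each library), but in nonclassical monocytes Eno3, the muscle enolase, made up 73.6% (72.6% to 74.5%) and 75.8% (74.6% to 77.0%). Eno3 stood there at 597 and 599 CPM, and it was not among the genes used for clustering. Eno2, the neuronal enolase, had 0 of 3461 and 0 of 4804 enolase UMIs in neutrophils, which allows a share of up to 0.107% and 0.0768%. Ldha made up 99.0% and 99.4% of lactate dehydrogenase UMIs in neutrophils, and Ldhb reached 14.9% and 18.8% in classical monocytes. Of the 2 transporters Slc2a1 and Slc2a3, Slc2a3 held 82.9% and 87.6% in neutrophils, 83.1% and 84.8% in NK cells, 50.5% and 67.3% in classical monocytes, and 33.8% and 37.6% in nonclassical monocytes. Neutrophil transcripts carried into other cells enter such shares, and their part was not tested. S100a9 stood at 10.6% and 11.1% of its neutrophil level in NK cells. In classical monocytes it stood at 1.11% and 1.19%, and in nonclassical monocytes at 1.30% and 1.40%.

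**Figure D2:**
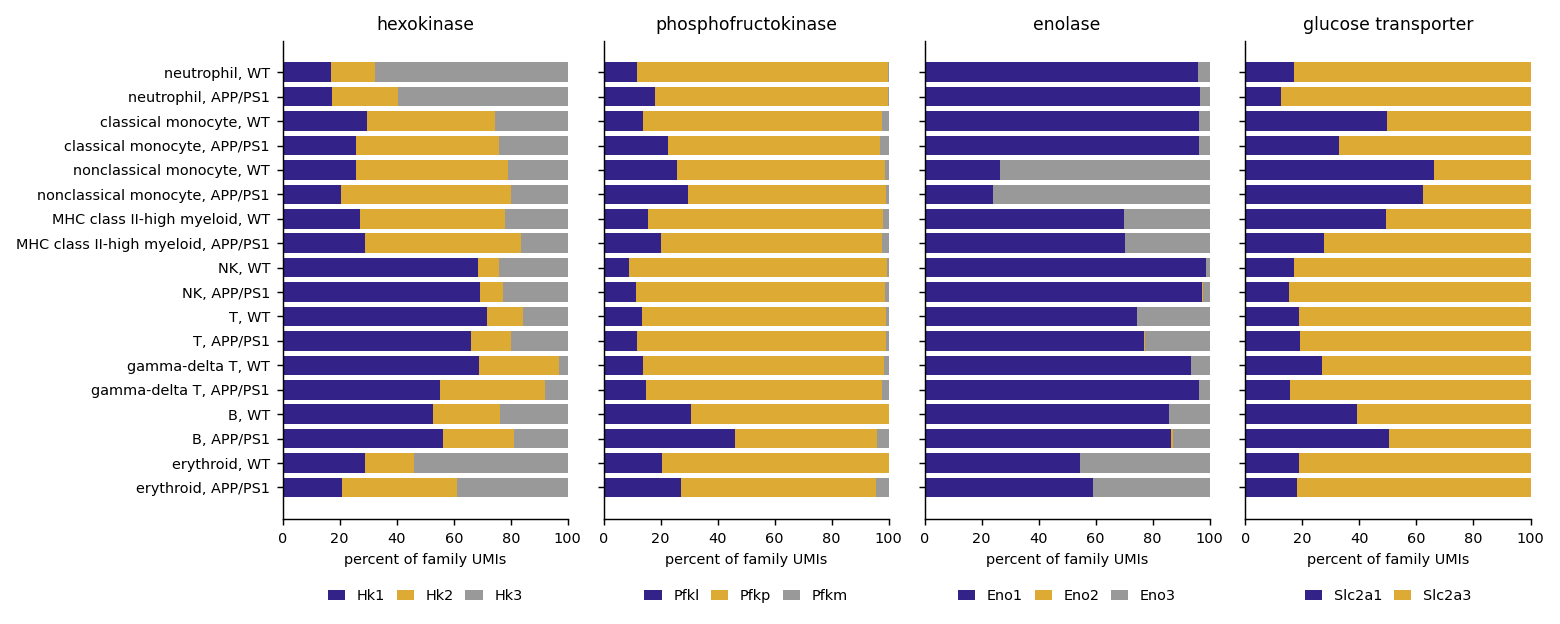
Share of the summed UMIs of each isozyme family (percent, stacked bars from 0 to 100) for hexokinase, phosphofructokinase, enolase and the glucose transporters Slc2a1 and Slc2a3, by cell type and library. Hk3 leads in neutrophils (67.7% and 59.7%), and Eno3 makes up 73.6% and 75.8% of enolase UMIs in nonclassical monocytes.

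Between the genotypes, Hk2 was the single member past 0.5 log2 in neutrophils, the fold limit the study used. It had 529 UMIs in the WT library and 1176 in the APP/PS1 library, that is 24.3 against 39.9 CPM, a log2 ratio of 0.72 (0.57 to 0.87). Of 6148 genes with at least 200 UMIs in either library, 3.4% were higher by over 0.5 log2 and 2.44% lower, and 57 genes (0.927%) had a higher ratio than Hk2. The other 9 members ranged from -0.11 to 0.12. Pkm (637 and 592 CPM), Gapdh (953 and 885 CPM) and Slc2a3 (459 and 427 CPM) had log2 ratios of -0.11, -0.11 and -0.10. Aldoa (359 and 390 CPM) and Ldha (143 and 151 CPM) had 0.12 and 0.08. The intervals of these 5 left out 0, while those of Pgk1 (135 and 130 CPM, -0.06), Tpi1 (39.7 and 41.5 CPM, 0.07), Eno1 (153 and 158 CPM, 0.05) and Pfkl (0.09) did not. The median over the 10 members was 0.06, equal to that over all genes tested, and the summed level of the 10 genes was 2909 and 2821 CPM.

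The share of cells with an Hk2 UMI rests on the same counts and is no separate support for the difference. At least 1 Hk2 UMI was found in 6.01% (5.49% to 6.57%) of WT and 10.5% (9.91% to 11.1%) of APP/PS1 neutrophils, and in 1.42% and 1.96% of NK cells at a median of 3596 and 3361.5 UMIs. With every cell thinned to 1000 UMIs the shares were 2.07% and 3.88% in neutrophils and 0.236% and 0.262% in NK cells. No neutrophil of either library held more than 5 Hk2 UMIs. Of 31 genes within 500000 bases of Hk2, 8 had enough UMIs, and their log2 ratios lay between -0.20 and 0.32.

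Other transcripts moved with the library in the same cells. The summed level of 9 immediate early genes, whose transcripts are induced within minutes of stimulation or handling, was 12897 and 18576 CPM in neutrophils, and it was higher in the APP/PS1 library in each of the other 8 types. The summed level of the 8 neutrophil markers was 181322 and 153753 CPM, that of 7 platelet genes 753 and 917 CPM, and that of 6 erythroid genes 1739 and 1098 CPM. The part of these in the Hk2 difference was not tested.

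**Figure D3:**
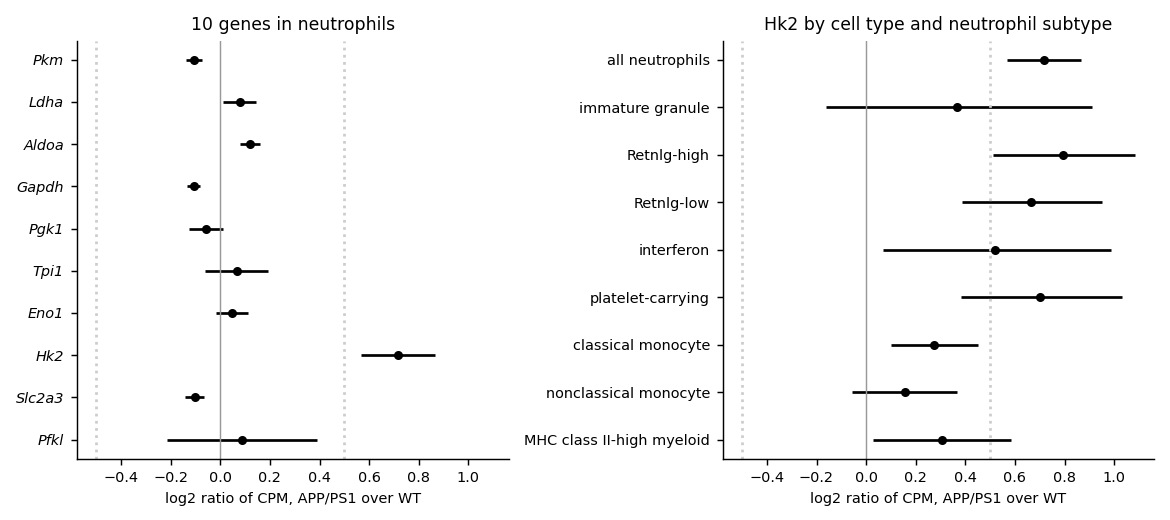
Left, log2 ratio of APP/PS1 to WT levels for the 10 genes in neutrophils. Right, the ratio of Hk2 in all neutrophils, in 5 neutrophil clusters and in the 3 other myeloid types. Points carry exact 95% intervals for counting error, and dotted lines mark 0.5 and -0.5. Hk2 stands at 0.72 in neutrophils, and the other 9 genes lie between -0.11 and 0.12.

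Neutrophils were clustered again into 6 groups without the members, the pathway genes and genes that differed between the libraries. The clusters are called after their leading markers: Retnlg-high (3118 and 3216 cells), Retnlg-low (2084 and 2763), platelet-carrying (1556 and 2348), interferon (591 and 954), immature granule (166 and 227) and mitochondrial (67 and 78). Hk2 reached 200 UMIs in 3 clusters, each time through the APP/PS1 library alone, so that the minimum favoured clusters where it was higher there. Its level was 18.7 and 32.4 CPM in Retnlg-high cells, a log2 ratio of 0.80 (0.51 to 1.08). It was 25.6 and 40.6 CPM in Retnlg-low cells, a ratio of 0.67 (0.39 to 0.95). In platelet-carrying cells it was 23.4 and 38.1 CPM, a ratio of 0.70 (0.38 to 1.03). Of 9 members tested in each of these clusters Hk2 alone passed 0.5, where 2.07%, 2.06% and 2.31% of all genes were higher by over 0.5, and because of the minimum nothing is read from this count. With fewer UMIs, the ratio was 0.52 (0.07 to 0.99) in interferon cells, from 57 and 143 UMIs, and 0.36 (-0.16 to 0.91) in immature granule cells, from 45 and 94 UMIs. In mitochondrial cells 4 and 12 UMIs were found. The widest other difference among members tested was that of Slc2a3 in interferon cells, with 459 and 358 CPM and a ratio of -0.36 (-0.50 to -0.21). In the other 4 clusters with enough UMIs its ratio lay between -0.17 and -0.04.

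Between neutrophil clusters, the immature granule cells stood apart. Named from Camp, Ngp, Ltf, Lcn2, Chil3, Ltb4r1 and Cybb, these cells held a median of 4870 and 6068 UMIs, against 2553 and 2703 for all neutrophils. Ldha was 263 and 278 CPM there, which is 0.93 and 0.95 log2 above all other neutrophils of the same library. Pgk1 was 284 and 269 CPM (1.14 and 1.13), Hk2 51.6 and 66.4 CPM (1.16 and 0.78) and Gapdh 1393 and 1319 CPM (0.58 and 0.61). These 4 of 10 members passed 0.5 log2 in both libraries, where 8.52% of all genes did, and 4 members also passed with TMM factors and without the abundant gene classes. Slc2a3 did not pass, with 439 and 406 CPM and differences of -0.07 and -0.08 that turned to at most 0.24 under the other scalings. Hk2 was also higher in interferon cells, with 37.8 and 54.1 CPM (0.70 and 0.49). With TMM factors this difference passed 0.5 in both libraries (0.70 and 0.51). In Retnlg-low cells Pgk1 was 106 and 96.7 CPM (-0.46 and -0.56), and in platelet-carrying cells Tpi1 was 50.1 and 52.2 CPM (0.44 and 0.47). The platelet genes stood at 2192 and 2432 CPM in the latter and at 753 and 917 CPM in all neutrophils, and their part in the Tpi1 level was not tested. The summed members stood at 3773 and 3658 CPM in immature granule cells and between 2515 and 3058 CPM in the other 5 clusters. S100a9 was also highest in immature granule cells, at 166122 and 170017 CPM, and lowest in Retnlg-low cells, at 66866 and 52643 CPM.

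**Figure D4:**
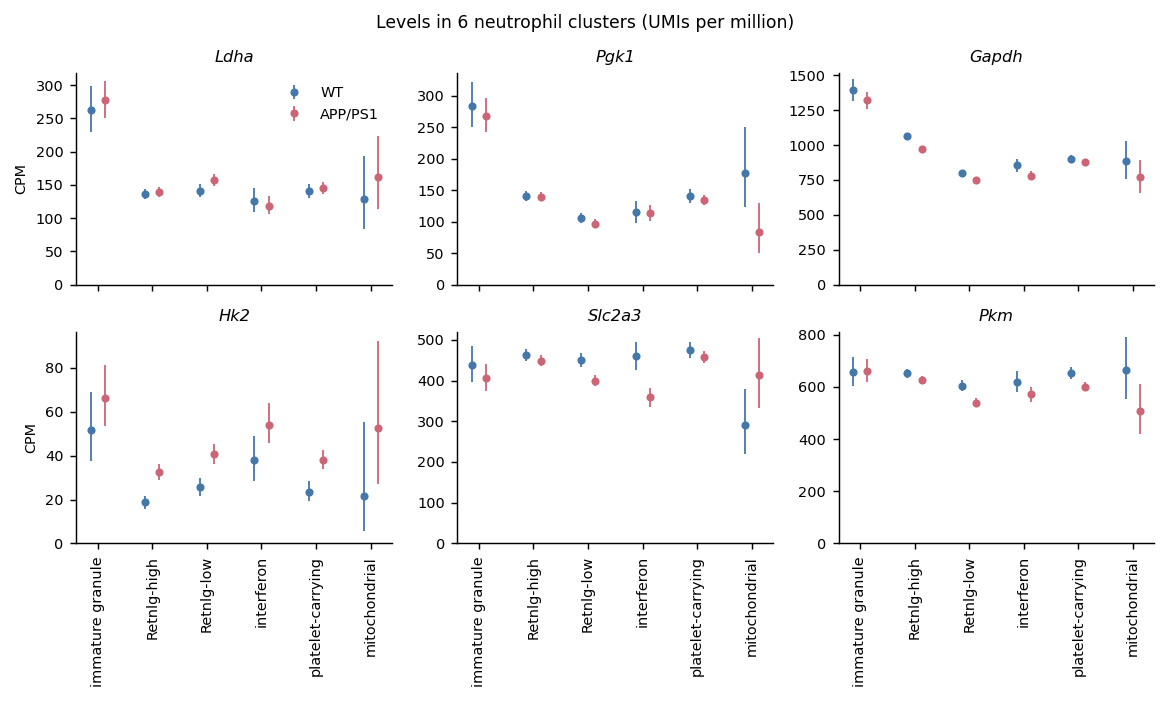
Level (CPM, linear axes from 0) of Ldha, Pgk1, Gapdh, Hk2, Slc2a3 and Pkm in the 6 neutrophil clusters of each library, with exact 95% Poisson intervals. Ldha, Pgk1, Gapdh and Hk2 have their highest level in immature granule cells of both libraries, with 51.6 and 66.4 CPM for Hk2.

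In the 8 other cell types no member with at least 200 UMIs passed 0.5 log2 between the libraries. The numbers tested were 9 in classical monocytes (3.08% of all genes passed in either direction), 9 in nonclassical monocytes (2.76%), 8 in MHC class II-high cells (3.33%), 7 in NK (2.22%), 6 in T (6.23%), 4 in B (6.78%), 3 in erythroid (18.7%) and 1 in gamma-delta T cells (8.3%). Hk2 had a ratio of 0.28 (0.10 to 0.45) in classical monocytes, 0.31 (0.03 to 0.59) in MHC class II-high cells and 0.16 (-0.06 to 0.37) in nonclassical monocytes. These 3 lay in the direction seen in neutrophils. Below 200 UMIs, Hk2 stood at -0.25 in B, -0.21 in T, 0.40 in NK and 0.77 in gamma-delta T cells, with intervals that held 0. In erythroid cells it was 1.72 (0.74 to 2.75), from 15 and 25 UMIs. Whether the neutrophil ratio differs from these was not tested, since each genotype has 1 library. In classical monocytes the 9 members tested ranged from -0.31 to 0.28 with a median of -0.19, beside a median of -0.05 over all genes. Ldha (167 and 135 CPM) stood at -0.31 (-0.42 to -0.20) there and Pkm (496 and 430 CPM) at -0.20 (-0.27 to -0.14), while Ldha was at 0.08 in neutrophils.

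The other genes of the pathway were followed in neutrophils by lists. Of 17 other glycolytic enzymes 6 had enough UMIs, and Pfkp, the platelet-type phosphofructokinase, was lower, with 55.4 and 34.7 CPM (-0.67). Of 11 glucose and lactate transporters 4 had enough UMIs, with a median of -0.30. Slc2a1 (GLUT1), the widely expressed glucose transporter, was lower with 94.7 and 60.4 CPM (-0.65), while Slc16a3, the lactate exporter MCT4, had 753 and 564 CPM (-0.42). Slc2a6 (-0.18) and Bsg (0.20) were the others tested. Slc2a1 also stood at -0.74 in classical monocytes and -0.76 in MHC class II-high cells. Slc16a3 stood at -0.35 in classical monocytes, -0.15 in nonclassical monocytes and -0.65 in B cells. In the types not named for a gene, its interval held 0. Of 10 genes tested among 16 that respond to hypoxia or its sensors, Hif1a, the oxygen-regulated transcription factor subunit, was lower with 193 and 136 CPM (-0.50). No gene passed among 3 glycolysis regulators, 7 pentose phosphate enzymes and 7 glycogen enzymes tested, and their medians were 0.11, 0.05 and -0.14. Of the 9 immediate early genes, 5 were higher (Fos 0.62, Jun 0.80, Egr1 0.68, Ier2 0.50 and Zfp36 0.75) with a median of 0.50. Hif1a and Ier2 lay at the limit itself. All these shares are to be read against 3.4% and 2.44% of all genes. Pfkp had ratios of -0.68 in classical monocytes, -0.50 in MHC class II-high cells and -0.30 in nonclassical monocytes. Its ratio was -0.19 in NK cells, -0.06 in T cells and, from 66 and 38 UMIs, -0.96 (-1.58 to -0.37) in B cells. In gamma-delta T cells it was -0.60 and in erythroid cells -0.40, with intervals that held 0. Hif1a had ratios of -0.44, -0.46 and -0.05 in the same 3 myeloid types and -0.40 (-0.71 to -0.10) in B cells, from 200 and 170 UMIs. Its level in NK cells was 60.7 CPM in each library (interval of the ratio -0.36 to 0.37). The Hif1a ratio was -0.27 in T, 0.14 in gamma-delta T and 0.05 in erythroid cells, with intervals that held 0. The higher shares of Hk2 among hexokinases and of Pfkl among phosphofructokinases in APP/PS1 neutrophils thus had different parts: Hk3 was 106 and 104 CPM while Hk2 was higher, and Pfkl was 7.26 and 7.71 CPM while Pfkp was lower.

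Across the 18 combinations of cell type and library, members varied together to different degrees. The highest Pearson correlation of log2(CPM + 10) was that of Aldoa with Gapdh (0.95), and the lowest that of Slc2a3 with Pfkl (-0.66). Of 5020 genes with at least 50 CPM in any combination, the members were left out for their sum, and a single gene for itself. Among the rest, Dhx38, Gnai2 and Arpc5 were most like the summed members (0.97, 0.97 and 0.96), and Sap30, Gch1 and Ifngr2 most like Hk2 (0.93, 0.93 and 0.92). Mxd1, Chst11 and Lcn2 were most like Slc2a3 (0.96, 0.96 and 0.96), and Dctn1, Lypla2 and Cdipt most like Ldha (0.96, 0.95 and 0.94). The points share libraries, free RNA and total counts, and these values are descriptions.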

How the data were processed

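The authors aligned and counted the 3′ reads of both libraries with Cell Ranger 5.0.0 on mm10 and deposited UMI counts per gene and barcode, raw and without normalization. From these counts, cells between the 5th and 95th percentiles of genes and of UMIs in their library and with at most 10% mitochondrial UMIs were kept, as in the study's methods, with the genes found in at least 3 cells (17456 genes). Seurat 5.3.0 in R 4.3.3 log-normalized counts to 10000 per cell and clustered on 2000 variable features without the pathway genes and 15 components, at resolution 0.2 for all cells and 0.8 for cells other than neutrophils. Neutrophils were integrated between libraries and clustered on 1913 features at the lowest resolution, in fixed steps, with at least 6 clusters (0.25). Cell names came from marker lists, and CD4 and CD8 clusters were joined as T cells. Scrublet (scanpy 1.11.5) called 9.04% of WT and 7.29% of APP/PS1 barcodes as doublets at the WT threshold, since the automatic APP/PS1 threshold called 0. Doublets were kept in the main values and removed in an alternative.

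UMIs were summed per library and cell type and divided by all UMIs of that sum (CPM). Intervals of levels are exact Poisson intervals, of ratios exact conditional intervals and of shares Clopper-Pearson intervals, all at 95% and computed with scipy 1.17.1 in Python 3.11.15. A difference counted as past the limit at 0.5 log2 between genotypes, or 1 log2 between cell types in both libraries, with at least 200 UMIs in one of the sums compared. The ratio step was tested on simulated data. Alternatives covered cell filters, doublets, edgeR 4.0.16 TMM factors, totals without abundant genes, means over cells, thinning to 1000 UMIs and 3 other neutrophil clusterings. The text names all 10 members, listed pathway genes past 0.5 log2 in neutrophils and the isozymes. It also gives genes within 500000 bases of a member past 0.5 log2 as counts, and the 3 genes most like the summed members, Hk2, Slc2a3 and Ldha. Slc16a3, Slc2a6, Bsg and the members named between types and clusters were chosen after their values were seen. The members and all lists were chosen with earlier results of these data known. Fewer cells of a type and less RNA per cell cannot be told apart in summed levels of the whole sample, and levels here are per UMI of a cell type. The libraries carry no replicate, so precision beyond counting error is unknown.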

Additional observations from a re-analysis of the deposited data

Results flagged for a closer look

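In 2 cell types the ratio of Slc2a3 between APP/PS1 and WT passed 0.5 log2 with an interval above 0, while the interval in neutrophils lay below 0 (-0.10, -0.14 to -0.06). In MHC class II-high myeloid cells it was 0.60 (0.15 to 1.04), from 86 and 89 UMIs (19.1 and 28.9 CPM). In gamma-delta T cells it was 1.31 (0.50 to 2.18), from 19 and 43 UMIs (42.6 and 106 CPM). Both rest on fewer than 200 UMIs in either library, and with 1 library per genotype the difference was not tested. In 3 further types the ratio was above 0 with an interval that held 0, namely classical monocytes (0.27), T cells (0.23) and erythroid cells (0.27). It was -0.87 (-1.39 to -0.35) in B cells, -0.05 in NK cells and -0.04 in nonclassical monocytes. In gamma-delta T cells S100a9 stood at 3.85% of its neutrophil level in the WT and 7.22% in the APP/PS1 library, and in MHC class II-high cells at 1.07% and 1.24%. In B cells S100a9 stood at 7.20% and 4.14%, and Slc2a3 at 11.6% and 6.84% of its neutrophil level. The part of free RNA or mixed droplets in these ratios was not tested.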

How the results depend on the processing

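Over 7 processing alternatives the Hk2 ratio in neutrophils ranged from 0.67 to 0.86, Hk2 was each time the 1 member past 0.5 log2, and no member changed sign there. In the other cell types, 1 member rather than 0 passed 0.5 log2 with percentile limits set over both libraries together (in NK cells), with means over cells (in erythroid cells) and with cells thinned to 1000 UMIs (in classical monocytes). Between cell types, TMM factors raised the differences past 1 log2, counted per member and type, from 28 to 45, by the shift given above. Over the 7 alternatives this count ranged from 22 to 45, and against erythroid cells from 0 to 10. Between neutrophil clusters, calls were counted per member and cluster, so that a member can count more than once. There were 7 rather than 4 calls past 0.5 log2 with all variable features kept and with TMM factors. TMM factors were chosen here after seeing the data, together with totals without abundant genes (5 calls). The immature granule cells had 4 in each. With TMM factors the further calls were Gapdh (-0.56 and -0.53) and Pgk1 (-0.68 and -0.77) in Retnlg-low cells and Hk2 in interferon cells. With 30 principal components no Retnlg-low cluster was found and Hk2 passed in 1 rather than 3 clusters. In platelet-carrying cells Hk2 did not reach 200 UMIs in that clustering. Under the alternatives where it did, its ratio there ranged from 0.66 to 1.07. Why the clusters differed was not tested. With a minimum of 50 rather than 200 UMIs, 5.68% of 8620 genes were higher and 3.69% lower in neutrophils. No paired analysis was possible because each genotype has 1 library and no replicate number. Pfkl, with 158 and 227 UMIs in neutrophils, allows log2 ratios from -0.21 to 0.39.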

Other observations

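Pentose phosphate and glycogen genes share glucose-6-phosphate with glycolysis. Of 7 pentose phosphate genes tested in neutrophils none passed 0.5 log2, with levels from Rpia (ribose-5-phosphate isomerase, 12.8 and 13.8 CPM) to Taldo1 (transaldolase, 2262 and 2455 CPM, a log2 ratio of 0.12). Of 7 glycogen genes tested none passed either. The lowest ratio among them was that of Phkg2, a phosphorylase kinase subunit, with 46.2 and 34.0 CPM (-0.44, -0.57 to -0.31), followed by Gyg (glycogenin) with 46.9 and 39.0 CPM (-0.27). Pygl (glycogen phosphorylase) had 588 and 532 CPM (-0.14) and Ugp2, which makes UDP-glucose for glycogen synthesis, 110 and 132 CPM (0.26). Txnip, which restrains glucose uptake, had 683 and 835 CPM (0.29). These genes were picked after their values were seen.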
